A study of Mus musculus with 4 samples.

Results

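The insulin-like growth factor (IGF) genes described here were 9 of the 32285 genes in the deposited matrices: the ligand gene Igf1, the receptor genes Igf1r and Igf2r, and the binding protein genes Igfbp2 to Igfbp7. The list was chosen by the levels these genes showed by keratinocyte compartment and stroma and by their ablated-against-control differences in the same libraries, so the values below describe the libraries and carry no test. Their levels were read in single-cell RNA sequencing of adult mouse back skin epidermis. DNp63fl/fl mice were the controls, and DNp63fl/fl;K14-CreT2 mice, called ablated below, also carried a tamoxifen-activated Cre driven by the promoter of keratin 14, a basal keratinocyte gene. The floxed allele allows deletion of ΔNp63, the main p63 isoform of basal keratinocytes. Mice of every group received 200 mg/kg tamoxifen by gavage daily for 5 days, so the controls were tamoxifen-treated as well, and epidermis was taken 1 day or 1 week after ablation.

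Each of the 4 groups was 1 library, from mice aged 2 to 17 months and of both sexes. How many mice were pooled, and which ages or which trypsin digestion went into which library, is not given in the sources used here. No difference below has a replicate check, no test was run, and every interval covers counting error only. The 1-day libraries used a 3′ kit (version 3.1) and the 1-week libraries a 5′ kit (version 1.1), so each ablated library was set only against the control of its own time point. A level is given in CPM: the unique molecular identifiers (UMIs, 1 per captured RNA molecule) of a gene, summed over the cells named, per 1000000 of their UMIs, with an exact 95% Poisson interval. For a count of 0 the upper limit given is 3 counts of the total, which is not an exact 2-sided limit. A log2 ratio is ablated over control, with an exact 95% interval, and where a pair of levels is given without names the control comes before the ablated library. Kits that read only 1 end of an RNA give no level per length, so levels are compared between cells and not between genes.

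IGF1 and IGF2 are growth factors that signal through the receptor tyrosine kinase encoded by Igf1r. The receptor encoded by Igf2r binds IGF2 and mannose 6-phosphate and carries ligand to lysosomes instead of signalling as a kinase. The secreted IGF-binding proteins hold IGFs with high affinity, which can keep them from the receptor or store them in the matrix, and proteases such as PAPP-A release them. IGFBP7 binds IGFs weakly. In skin, IGF1 is known mainly as a product of dermal fibroblasts and the dermal papilla that acts on keratinocytes, which carry the receptor.

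The 9 genes lie on 7 mouse chromosomes (build GRCm38), and all 9 are protein-coding. Igfbp2 (chr1:72824503-72852474, plus strand) and Igfbp5 (chr1:72857932-72874884, minus strand) are neighbours that end toward each other. Igfbp3 lies at chr11:7206086-7213923 (minus strand) and Igfbp4 on the same chromosome at chr11:99041244-99054392 (plus strand). Igf2r (chr17:12682406-12769664, minus strand) overlaps the antisense gene Airn (chr17:12741311-12860136, plus strand). The strand setting of the counting is not given in the sources used here, and whether reads of Igf2r and Airn were kept apart in the overlap was not checked.

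The 250 bases before the RefSeq gene start (GRCm38.p6) are printed for 4 binding protein genes on which the keratinocyte results below turn. Capitals mark matches of the motifs searched on both strands, and each run is given 5′ to 3′ on the gene's strand.
Igfbp2, chr1:72824230-72824479, plus strand: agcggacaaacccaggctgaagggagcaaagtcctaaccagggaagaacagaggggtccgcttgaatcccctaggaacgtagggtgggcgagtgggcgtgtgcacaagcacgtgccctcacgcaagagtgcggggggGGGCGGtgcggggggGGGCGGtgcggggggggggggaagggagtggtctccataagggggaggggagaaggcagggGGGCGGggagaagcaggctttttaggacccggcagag
Igfbp3, chr11:7213924-7214173, minus strand: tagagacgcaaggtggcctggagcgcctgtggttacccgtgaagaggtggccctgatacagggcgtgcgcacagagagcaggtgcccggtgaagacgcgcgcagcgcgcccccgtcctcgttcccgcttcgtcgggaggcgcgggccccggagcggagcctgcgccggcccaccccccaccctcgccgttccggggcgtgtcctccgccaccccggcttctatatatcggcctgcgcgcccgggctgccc
Igfbp4, chr11:99040994-99041243, plus strand: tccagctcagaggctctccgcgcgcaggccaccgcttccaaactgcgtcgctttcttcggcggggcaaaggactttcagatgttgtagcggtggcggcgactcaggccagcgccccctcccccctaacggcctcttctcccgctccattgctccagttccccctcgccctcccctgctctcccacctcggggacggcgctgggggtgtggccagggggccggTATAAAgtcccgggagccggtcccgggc
Igfbp5, chr1:72874866-72875115, minus strand: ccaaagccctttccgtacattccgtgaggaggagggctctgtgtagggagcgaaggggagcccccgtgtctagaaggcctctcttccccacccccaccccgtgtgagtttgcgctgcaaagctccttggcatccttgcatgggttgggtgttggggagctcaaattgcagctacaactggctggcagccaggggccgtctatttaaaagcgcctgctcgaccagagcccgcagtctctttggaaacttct

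Of these 4, Igfbp3 had the highest GC content in this window (73.2%) and Igfbp5 the lowest (58.8%), against a median of 52.4% over 32851 RefSeq promoters of the same length. The motifs were TATAAA, which 12.4% of all these promoters hold, GGGCGG (32.7%), CCAAT (33.8%) and the p53 family half-site (7.13%). Igfbp2 held 3 GGGCGG matches and Igfbp4 held 1 TATAAA match ending 23 bases before the start. The windows of Igfbp3 and Igfbp5 held no match to any of the 4 motifs, and no window of the 9 genes held a p53 family half-site.

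The libraries held 33552 (control) and 32212 (ablated) barcodes at 1 day and 25039 and 18413 at 1 week, with 68191870 to 179736563 UMIs per library. Filters, doublet removal and setting aside of clusters left 19185 control and 15373 ablated keratinocytes at 1 day and 5563 and 3091 at 1 week. Free-RNA-like clusters were set aside at both times. Clusters not named as other cell types were set aside for a median under 3000 UMIs at 1 week only. The 1-day bulge-like clusters, with medians of 2320.5 to 2764.5 UMIs, were kept. Under these unlike rules the clusters set aside held 1.71% and 11.9% of the filtered cells at 1 day but 34.2% and 59.9% at 1 week. Control and ablated libraries shared 299 barcodes at 1 day and 661 at 1 week, and libraries of different time points 9 to 18. Trp63, the gene that encodes p63, checked the labels: in keratinocytes it stood at 401 (control) and 123 (ablated) CPM at 1 day and at 447 and 140 at 1 week. The deposited counts do not separate ΔNp63 from other Trp63 transcripts. In bulge-like cells Trp63 differed less, at 384 (control) and 288 (ablated) at 1 day, then 540 and 339 at 1 week.

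The classes held very different numbers of cells in the libraries. Basal interfollicular-like cells were 23.7% of control and 3.37% of ablated keratinocytes at 1 day, and 35.6% and 0.582% (18 cells) at 1 week. A cluster led by Krt8, with 2 control and 3909 ablated cells at 1 day, was kept apart from the keratinocytes. A sum over all keratinocytes therefore mixes the number of cells of each class with the RNA per cell, and the pooled sums alone cannot tell these apart. Class names come from fixed markers. The epidermis had been scraped from the dermis, and stromal classes were small: 129 and 268 fibroblast-like cells at 1 day, and 158 and 64 at 1 week beside 107 and 80 dermal papilla-like cells. The 1-day fibroblast-like cluster was led by Tnfaip6, Vim and Serpine2, and the 1-week one by Dcn and Col1a1. At 1 day its 8 fibroblast markers summed to 5116 (control) and 2542 (ablated) CPM, beside 15730 and 32670 for 13 keratinocyte markers. Tnfaip6, Serpine2, Crabp1 and Inhba were among the 10 leading genes of both this cluster and the 1-week dermal papilla-like one, and fibroblast-like levels of the 2 times are given side by side only. At 1 week the fibroblast markers of fibroblast-like cells summed to 40840 and 31570 and the keratinocyte markers to 7384 and 1650, and in dermal papilla-like cells the keratinocyte markers summed to 10870 and 3887. The part of these sums in the stromal levels was not tested.

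Igf1, the ligand, was read in stromal and macrophage or monocyte-like cells and hardly in keratinocytes. At 1 week fibroblast-like cells held 481 CPM in the control (interval 432 to 534) and 401 in the ablated library (328 to 485), and dermal papilla-like cells held 316 (260 to 381) and 175 (126 to 235). The fibroblast-like intervals overlapped, and in dermal papilla-like cells the log2 ratio was -0.86 (-1.40 to -0.34). Without the 10 highest cells of each library the fibroblast-like levels were 323 and 160, a log2 ratio of -1.01. These were 10 of 158 control and 10 of 64 ablated cells, a larger part of the ablated class, which by itself lowers the ratio. At 1 day fibroblast-like cells held 143 in the control and 66.0 in ablated cells, beside fibroblast marker sums of 5116 and 2542. Macrophage or monocyte-like cells at 1 week, 37 and 16 cells, held 194 and 330. In keratinocytes only 6 and 11 Igf1 UMIs were counted at 1 day and 8 and 4 at 1 week, so no ratio was read there.

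Igf2, the other ligand gene, gave 3 and 5 UMIs in keratinocytes at 1 day and 8 and 0 at 1 week. Fibroblast-like cells held 22 and 8 Igf2 UMIs at 1 day and 9 and 6 at 1 week, too few for the design's limit of 20 at the later time.

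**Figure D1:**
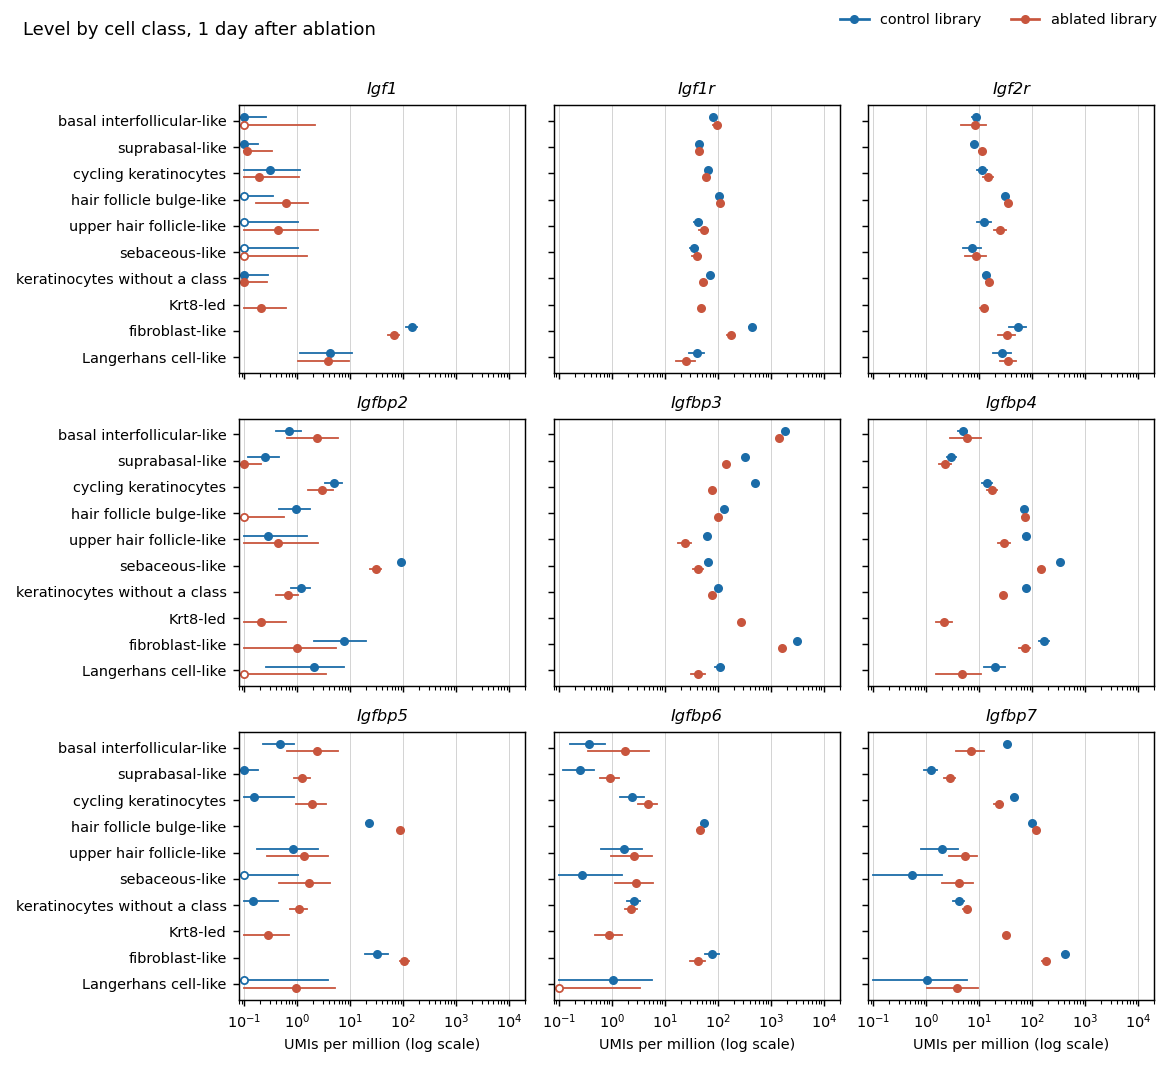
Level of each of the 9 genes by cell class in the control and ablated libraries 1 day after ablation, in CPM on a log axis, with exact 95% Poisson intervals and open points at the left edge for a count of 0. Igfbp3 was high in basal interfollicular-like (1827 and 1438) and fibroblast-like cells (3097 and 1616), Igfbp2 and Igfbp4 in sebaceous-like cells and Igfbp5 and Igfbp6 in bulge-like cells. The fibroblast-like cluster shared leading genes with the 1-week dermal papilla-like one, and its keratinocyte markers summed to 15730 and 32670.

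Igf1r, the signalling receptor, was read in every keratinocyte class. In the 1-day control library the 10% of barcodes with the fewest UMIs held 149, above every keratinocyte class, and Langerhans cell-like cells held 39.75. Such barcodes held 72.8 in the 1-day ablated, 58.0 in the 1-week control and 29.6 in the 1-week ablated library. Presence of Igf1r in the classes with lower levels was thus not shown above such background. In control keratinocytes at 1 day its level was highest in bulge-like cells (107, 101 to 113), followed by basal interfollicular-like cells (80.0, 76.2 to 83.9), and lowest in sebaceous-like cells (35.8, 29.9 to 42.5). Suprabasal-like (44.8) and upper hair follicle-like cells (42.5) lay between, with overlapping intervals, and the upper hair follicle-like and sebaceous-like intervals overlapped as well. The bulge-like level was almost equal in the ablated library (109 at 1 day, and 68.4 in the control against 65.2 in the ablated library at 1 week). Over all keratinocytes Igf1r stood at 64.0 (control) and 55.8 (ablated) at 1 day, and at 48.8 and 30.9 at 1 week (log2 ratio -0.66, -0.77 to -0.56).

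Keratinocyte clusters with at least 50 cells of each library, called shared below, held 100% of control and 63.4% of ablated keratinocytes at 1 day and 43.7% and 69.7% at 1 week. Within the shared 1-day clusters Igf1r was higher in the ablated library in 13 of 17, the opposite direction to the pooled value. The median log2 ratio of these 17 was only 0.13, with 1 cluster past 2-fold. Clusters of a library are not replicates, and the same count over all genes is not given, here or for the genes below. At 1 week it was higher in 3 and lower in 4 of 7. Suprabasal-like cells were lower at 1 week (32.5 and 21.3), but different clusters held most of that class in the 2 libraries. In stroma, dermal papilla-like cells held 230 (control) and 239 (ablated), more than any keratinocyte class at 1 week. Fibroblast-like cells held 438 (383 to 498) and 174 (149 to 201) at 1 day, beside the marker sums given above, and 51.3 and 84.0 at 1 week with overlapping intervals.

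Igf2r, the lysosomal sorting receptor, was highest among keratinocytes in bulge-like cells, with 30.9 (control) and 34.7 (ablated) at 1 day and 36.6 and 41.4 at 1 week. Upper hair follicle-like cells held 12.3 (8.93 to 16.5) and 24.9 (18.9 to 32.3) at 1 day, and 15.9 (11.9 to 20.7) and 31.7 (26.8 to 37.2) at 1 week. The ablated level was thus higher there at both times, with log2 ratios of 1.02 and 1.00, but with every cell thinned to 1500 UMIs the ratios were 0.23 and 0.05. Suprabasal-like cells held 7.84 and 11.2 at 1 day and 8.67 and 21.7 at 1 week (log2 ratio 1.32, 1.02 to 1.63), though with a lowest count of 500 UMIs per cell the 1-week ratio was 0.10. Different clusters held most of that class in the libraries: at 1 day 3027 of 4449 ablated cells lay in a cluster with 1 control cell, and the 1-week clusters were those named below for Igfbp3. Of the shared clusters with at least 20 Igf2r UMIs, 13 of 16 were higher in the ablated library at 1 day and 5 of 6 at 1 week. The median log2 ratios were 0.28 and 0.70, with 1 and 0 clusters higher by 2-fold.

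Airn, whose antisense transcript overlaps Igf2r, stood at 1.33 (control) and 2.30 (ablated) in keratinocytes at 1 day and at 0.457 and 0.924 at 1 week. The ratios of the 2 genes thus had the same sign, and how far their reads mix was not tested. T cell-like cells, a class named only at 1 week, held 98.8 and 138 Igf2r CPM and fibroblast-like cells 95.9 and 107, in each case with overlapping intervals. A 1-day cluster of 238 control and 410 ablated cells, with T cell genes such as Cd3g and Trdc among its leading genes, had been set aside.

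**Figure D2:**
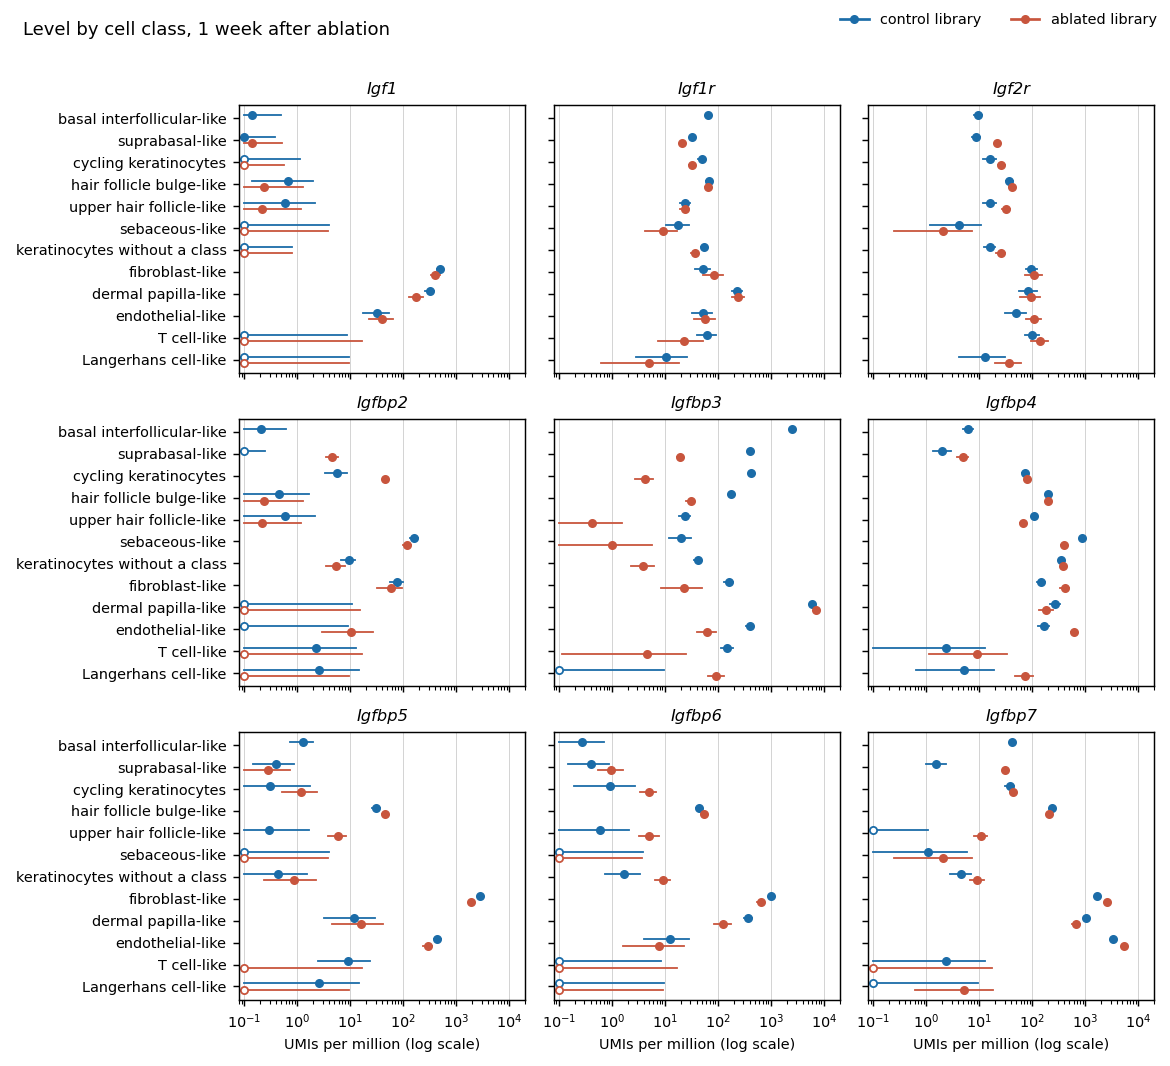
The same plot for the libraries 1 week after ablation, where more stromal classes were present. Igf1 and Igfbp5 stood far higher in fibroblast-like cells than in any keratinocyte class, and the dermal papilla-like Igfbp3 level (5907 and 7007) lay above that of every other class shown.

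Igfbp3 encodes the main IGF carrier of serum and was the binding protein gene of basal keratinocytes here. In the controls, basal interfollicular-like cells held 1827 CPM at 1 day and 2495 at 1 week, and gave 66.0% and 80.9% of all keratinocyte Igfbp3 UMIs. Control suprabasal-like cells held 325 and 403, cycling cells 511 and 420 and bulge-like cells 129 and 177. Igfbp3 was kept out of the clustering and still led the basal clusters at 1 week.

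Over all keratinocytes Igfbp3 stood at 560 (555 to 564) in the control and 134 (131 to 137) in ablated cells at 1 day, a 4.18-fold lower level (log2 ratio -2.06, -2.10 to -2.03). At 1 week it stood at 963 (954 to 972) and 13.9 (12.7 to 15.2), a 69.3-fold lower level (log2 ratio -6.11, -6.24 to -5.99). The pooled level was lower in the ablated library at each time. With the Krt8-led cells counted in, the 1-day levels were 560 and 158. No Krt8-led class was named at 1 week, where the pooled ablated keratinocytes held 392 Krt8 CPM. Of the ablated 1-week UMIs, 54.7% came from 10 cells, and without the 10 highest cells of each library the levels were 941 and 6.32 (log2 ratio -7.22). Over all 25039 and 18413 barcodes of the 1-week libraries, with no cell set aside, Igfbp3 stood at 844 and 67.0 CPM.

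The 1-day difference was smaller inside basal cells than in the pool. The 518 basal interfollicular-like cells left in the ablated library held 1438 (1382 to 1496) against 1827 (1809 to 1845) in 4553 control cells, a log2 ratio of -0.35 (-0.40 to -0.29). In this class Trp63 stood at 593 (control) and 371 (ablated), against 401 and 123 over all keratinocytes. With cells thinned to 1500 UMIs, 69.7% of control and 62.2% of ablated basal cells showed Igfbp3 (83.6% and 70.5% unthinned). Summed over the 17 shared keratinocyte clusters the log2 ratio at 1 day was -1.73, against -2.06 in the pool. With these clusters counted equally it was -0.16. Here and below, counted equally means the ratio of the mean CPM over the clusters, so clusters with high levels weigh most. The median ratio of the 17 clusters was -0.77. The clusters did not move as one: Igfbp3 was lower in the ablated library in 15 and higher in 2, with log2 ratios from -2.72 in cycling keratinocytes (511 and 77.4) to 1.58.

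The highest of those ratios belonged to a spinous cluster of 3692 control and 334 ablated cells, led by suprabasal genes such as Krt10 and Krtdap, where Igfbp3 stood at 447 in the control and 1341 in ablated cells. The other cluster with a higher level, 1118 and 532 suprabasal-like cells, held 141 and 235. By contrast a suprabasal-like cluster with 1 control and 3027 ablated cells, led by Sprr2d and Slpi, held 67.6 in the ablated library. Suprabasal-like cells as a whole were lower in the ablated library (325 and 145) although 2 of their clusters were higher, and the log2 ratio of the class moved from -1.17 to -0.72 with a lowest count of 3000 UMIs. The Krt8-led cells of the ablated library held 275.

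At 1 week the shared clusters were lower as well. Of 7, 6 had at least 20 UMIs and all 6 were lower in the ablated library. Cycling keratinocytes held 420 (398 to 443) in the control and 4.19 (2.78 to 6.05) in ablated cells, with 259 and 320 cells. Bulge-like cells held 177 (165 to 190) and 30.5 (25.5 to 36.2). Upper hair follicle-like cells held 23.5 and 0.426, the latter from 2 UMIs (log2 ratio -5.79, -8.86 to -3.89). Of the control UMIs there 92.5% lay in 10 cells, without which the control level was 1.82, and with a lowest count of 500 UMIs per cell the log2 ratio was -1.62. Counted equally, the shared clusters gave a log2 ratio of -3.88. Suprabasal-like cells held 403 and 19, but in different clusters: the control cells were mainly 728 and 377 cells in 2 clusters with 6 and 0 ablated cells, and the ablated cells mainly 614 in a cluster with 0 control cells. The 18 basal interfollicular-like cells left in the ablated library held 258 (188 to 346), but all 45 UMIs lay in 5 cells and 26 of them in 1 cell.

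**Figure D3:**
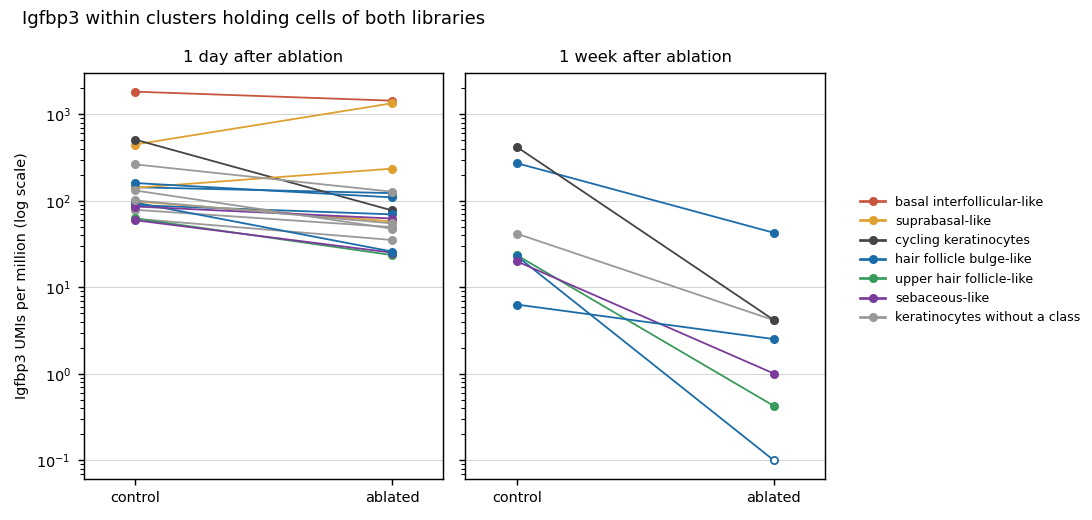
Igfbp3 level in CPM (log axis) in each keratinocyte cluster with at least 50 cells of each library, control joined to ablated, coloured by class, with an open point for a count of 0. At 1 day the basal line is nearly level (1827 and 1438) and 2 suprabasal-like lines go up, while at 1 week every line goes down.

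Barcodes with few UMIs, taken as a stand-in for free RNA, also held Igfbp3. In the 10% of barcodes with the fewest UMIs Igfbp3 stood at 820 (control) and 174 (ablated) at 1 day. The 1-week levels there were 805 and 142, and both differences had the direction seen in the cells. Depth was unlike: the 1-day control barcodes of this kind had a median of 737 UMIs, the 1-day ablated ones 1541. For the 1-week libraries the medians were 567 (control) and 1101 (ablated). The 1-day ablated median lay above the floor of 1500 UMIs for a cell, so many of those barcodes passed it. The shared direction at 1 day therefore cannot tell free RNA from cells. Langerhans cell-like cells, which should lack the gene, showed it after thinning in 10.3% of control and 4.15% of ablated cells at 1 day (16.3% and 4.84% unthinned, at median depths of 2484 and 2227 UMIs). Keratinocytes showed it in 31.4% and 10.6% (48.7% and 18.3% unthinned, at 4487 and 3753 UMIs), so the ablated pool stood nearer to that background than the control pool did. At 1 week the keratinocyte shares were 34.8% and 1.94% (46.6% and 3.82% unthinned, at 6867 and 8333 UMIs), beside 0 of 96 control Langerhans cell-like cells, which allows a share of up to 3.12%, and 1.75% of the ablated ones (0.0444% to 9.39%, exact binomial). With so few Langerhans cell-like cells, this background is too wide to place the ablated 1-week keratinocyte share above or within it. All 37 Igfbp3 UMIs of the ablated Langerhans cell-like cells lay in 1 cell. The part of free RNA in the differences was not tested.

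Hashtags, antibody barcodes present in the 1-day libraries only, divided the cells into 3 sets per library, and the labels do not say what each marked. They assigned 63.7% of control and 37.8% of ablated cells. Keratinocyte Igfbp3 ran from 289 to 719 over the control sets and from 82.7 to 174 over the ablated sets, without overlap. In basal interfollicular-like cells the sets overlapped, at 1157 to 2052 and 1319 to 1728. Sets of a library are not replicates, and the share of all genes whose sets separate was not computed.

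Stromal classes did not share 1 direction for Igfbp3. Dermal papilla-like cells, the follicle's mesenchymal signalling centre, held 5907 (5655 to 6168) in the control and 7007 (6680 to 7345) in ablated cells at 1 week, a log2 ratio of 0.25 (0.15 to 0.34), beside the keratinocyte marker sums of 10870 and 3887. Fibroblast-like cells held 161 and 22.9 at 1 week, but 95.8% of the control UMIs lay in 10 of 158 cells. Endothelial-like cells held 398 and 63.0 at that time, with 97.5% of the control UMIs in 10 of 80 cells. At 1 day fibroblast-like cells held 3097 and 1616, beside the higher keratinocyte marker sum of the ablated cells given above.

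Igfbp2 encodes a binding protein made by many tissues and marked sebaceous-like cells here. In the controls they gave 78.5% of the keratinocyte Igfbp2 UMIs at 1 day and 69.1% at 1 week. At 1 day sebaceous-like cells held 91.9 (82.3 to 102) in the control and 30.01 (23.5 to 37.7) in ablated cells, a lower level (log2 ratio -1.61, -2.0 to -1.25). The hashtag sets did not overlap, at 52.7 to 96.1 in the control and 18.3 to 34.9 in the ablated library. They held only 88 to 213 control and 24 to 110 ablated cells of the class. Sets are not replicates, and the share of all genes whose sets separate was not computed. The class joined 2 clusters at 1 day, one led by Akr1c18 and Plin2 (466 control and 269 ablated cells) and one led by Soat1 and Elovl6 (106 and 241), which held 107 and 45.8 and 47.7 and 11.6. Igfbp2 was thus lower in each of them. At 1 week sebaceous-like cells held 160 and 119 (log2 ratio -0.43, -0.79 to -0.07), in 96 and 62 cells, and without the 10 cells with most UMIs the ratio was -1.71. Leaving out 10 cells takes a larger part of the smaller ablated class.

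Pooled Igfbp2 went opposite ways at the 2 times. It stood at 4.04 (control) and 1.56 (ablated) at 1 day and at 4.78 and 14.5 at 1 week (log2 ratios -1.37 and 1.60). At 1 day the log2 ratio was -0.63 summed over the shared clusters and -1.41 with these counted equally. Most of the ablated 1-week UMIs lay in cycling keratinocytes, which held 5.58 (3.31 to 8.82) in the control and 45.8 (40.8 to 51.2) in ablated cells and gave 59.1% of the ablated UMIs. These 306 UMIs lay in 36 of 320 cells, and 64.7% of them in 10 cells. The 1-week log2 ratio of Igfbp2 was 0.72 (0.48 to 0.957) summed over the shared clusters and -0.05 with these counted equally. The sebaceous-like cluster, with 160 and 119, weighed most in the latter value. Suprabasal-like cells at 1 week held 0 UMIs in the control (up to 0.200 CPM) and 65 in the ablated library, 83.1% of them in 10 cells. The libraries held most of that class in the different clusters named for Igfbp3.

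**Figure D4:**
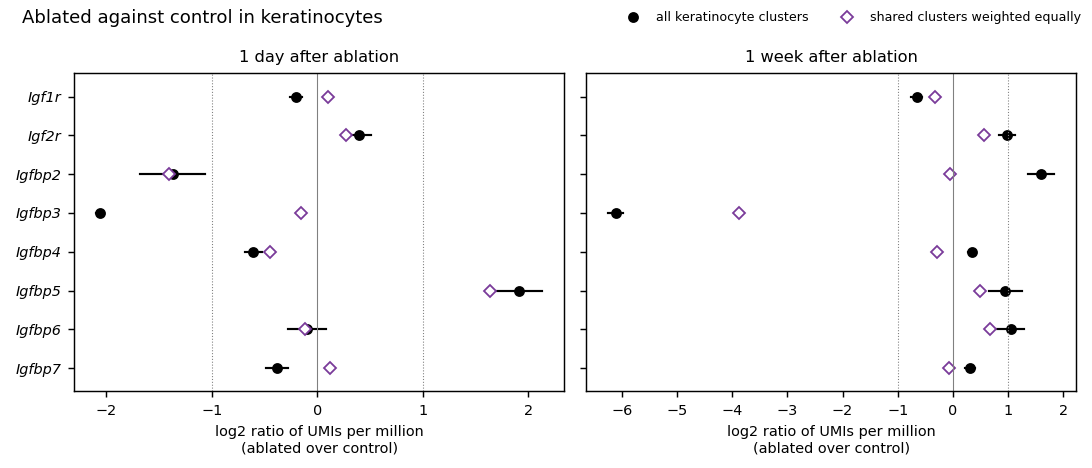
Log2 ratio of ablated over control for the 8 genes with at least 20 keratinocyte UMIs, over all keratinocyte clusters (filled, with exact 95% intervals) and with the clusters shared by both libraries counted equally (open), with dotted lines at 2-fold. Igfbp3 moved from -2.06 to -0.16 at 1 day and from -6.11 to -3.88 at 1 week between the 2 ways of counting, and Igfbp2 at 1 week from 1.60 to -0.05. The open points give the ratio of the mean CPM over the clusters, so clusters with high levels weigh most.

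Igfbp4 encodes a binding protein that PAPP-A cleaves. By class it was highest among control keratinocytes in sebaceous-like cells, with 329 (310 to 348) in the control and 143 (128 to 158) in ablated cells at 1 day, and 852 (794 to 913) and 391 (353 to 432) at 1 week. It was lower in ablated sebaceous-like cells at both times, with log2 ratios of -1.21 (-1.38 to -1.03) and -1.12 (-1.30 to -0.95). The 1-week sebaceous-like values rest on 96 control and 62 ablated cells. A cluster of 247 ablated cells that scored highest for sebaceous markers had been set aside for low UMIs, as had a control one of 141 cells. The 1-day level was lower in each sebaceous-like cluster, at 345 and 166 in the one led by Akr1c18 and Plin2 and 283 and 116 in the one led by Soat1 and Elovl6. At 1 week ablated keratinocytes without a class held 386, near the ablated sebaceous-like level. The 1-day hashtag sets of sebaceous-like cells did not overlap, at 237 to 398 and 119 to 172, with as few as 24 ablated cells in a set. As for Igfbp2, the share of all genes whose sets separate there was not computed. Upper hair follicle-like cells were lower as well, at 76.3 and 29.3 at 1 day, then 108 and 66.6 at 1 week, but the log2 ratio shrank from -1.38 to -0.36 at 1 day with a lowest count of 500 UMIs and from -0.70 to -0.084 at 1 week with one of 3000.

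Bulge-like Igfbp4 stood at 68.5 (63.5 to 73.6) and 71.2 (64.8 to 78.0) at 1 day and at 193 and 199 at 1 week, with overlapping intervals. The 1-week log2 ratio ran from -0.53 with a lowest count of 3000 UMIs to 0.87 with doublets kept. Within the bulge it was highest in the cluster led by Aspn and Pthlh, with 230 and 256 at 1 day and 876 and 932 at the later time. Pooled keratinocyte Igfbp4 stood at 38.2 and 25.1 at 1 day and at 86.7 and 110 at 1 week, so its sign changed between the times while the sebaceous sign did not. Summed over the shared clusters both pooled signs turned, to log2 ratios of 0.12 and -0.35. With these clusters counted equally the ratios were -0.45 and -0.28, so the 1-day sign then stayed as in the pool, and 9 of 15 shared 1-day clusters with 20 UMIs were lower (median -0.10). At 1 week endothelial-like cells held 165 and 607, but 87.4% of the 231 ablated UMIs lay in 10 of 74 cells. Without the 10 highest cells of each library the endothelial-like levels were 64.9 and 96.7.

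Igfbp5 encodes the binding protein that associates with extracellular matrix, and was a gene of the bulge, the follicle's stem cell compartment, and of stroma. Bulge-like cells held 22.1 (19.4 to 25.1) in the control and 86.1 (79.1 to 93.6) in ablated cells at 1 day, a higher level with a log2 ratio of 1.96 (1.74 to 2.19). Of the 559 ablated UMIs 509 lay in the cluster of 1686 control and 1202 ablated cells led by S100a4, Cd34 and Krt24, with 32.2 and 142. The cluster led by Lgr5 held 16.9 and 35.8, and the one led by Aspn and Pthlh 20.1 and 17.2.

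Few cells carried the bulge Igfbp5. In the ablated library 46.5% of the UMIs lay in 10 cells, and without the 10 highest cells of each library the levels were 14.7 and 46.5. After thinning 2.24% of control and 4.07% of ablated bulge-like cells showed it (3.52% and 6.41% unthinned), and 0 of 349 and 0 of 434 Langerhans cell-like cells did, which allows shares of up to 0.860% and 0.691%. The hashtag sets ran from 4.73 to 11.7 in the control and from 15.8 to 339 in the ablated library. These sets held only 156 to 249 of 3440 control and 85 to 112 of 2138 ablated bulge-like cells, and the level over all control bulge-like cells (22.1) lay above every control set and above the lowest ablated set, so the sets do not describe the whole class. The 8 fibroblast markers summed to 491 and 654 in bulge-like cells, in the same direction, and Dcn, a defining fibroblast gene, stood at 0.284 and 1.54. Sparc, on the same marker list, was itself a leading gene of the bulge cluster led by S100a4, Cd34 and Krt24, and Col1a1 stood at 1.80 and 3.70. The part of stromal RNA in the difference was not tested.

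At 1 week bulge-like Igfbp5 stood at 30 (25.1 to 35.6) and 45.5 (39.4 to 52.4), a log2 ratio of 0.60 (0.28 to 0.93). The largest bulge cluster, 645 and 615 cells, held 38.4 and 44.0, while the one led by Lgr5 held 11.1 and 71.9. Stromal levels were higher. Fibroblast-like cells held 2813 (2694 to 2937) and 1917 (1753 to 2092), beside fibroblast marker sums of 40840 and 31570, smooth muscle or pericyte-like cells 3038 and 1470 in 27 and 34 cells, and endothelial-like cells 437 and 289. At 1 day fibroblast-like cells held 32.4 and 105, with 98.1% of the ablated UMIs in 10 cells.

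Igfbp6 encodes a binding protein that prefers IGF2 and was, like Igfbp5, read in bulge and stroma. Bulge-like cells held 54.5 and 45.3 at 1 day and 44.6 and 55.0 at 1 week, small differences of opposite sign. The largest 1-week bulge cluster held 69.8 in each library. Fibroblast-like cells at 1 week held 983 (913 to 1057) and 642 (548 to 746), again beside the lower fibroblast and keratinocyte marker sums of the ablated class, and dermal papilla-like cells 377 (315 to 447) and 126 (85.5 to 178). Few cells carried the dermal papilla-like level: 86.3% of the 131 control UMIs lay in 10 of 107 cells, and all 31 ablated UMIs in 10 cells. The pooled keratinocyte level at 1 week was higher, 4.76 and 9.82, and over all cells together, stroma included, it was lower (log2 ratio -0.65). The keratinocyte log2 ratio of 1.04 became 0.35 summed over the shared clusters and 0.67 with these counted equally, both under 2-fold.

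Igfbp7, the low-affinity binding protein made by vessels, was highest in vessel classes at 1 week. Endothelial-like cells held 3246 (3073 to 3426) in the control and 5449 (5217 to 5688) in ablated cells. In the same class the 13 keratinocyte markers summed to 15370 and 3093 and the 7 smooth muscle or pericyte markers to 283 and 1232, and their part in the Igfbp7 difference was not tested. Smooth muscle or pericyte-like cells held 3406 and 4497 and fibroblast-like cells 1665 and 2597, while dermal papilla-like cells held 1038 and 665. In both of the last-named classes the keratinocyte marker sum was lower in the ablated library (7384 and 1650, and 10870 and 3887). Among keratinocytes bulge-like cells were highest, at 97.9 and 116 at 1 day and 238 and 205 at 1 week. Basal interfollicular-like cells at 1 day held 33.7 (31.3 to 36.2) and 6.95 (3.59 to 12.1), a log2 ratio of -2.28 (-3.24 to -1.46) from 723 and 12 UMIs. At 1 week they held 41.2 and 149, a log2 ratio of 1.86 (1.23 to 2.42) in the other direction, from 26 UMIs in 5 of the 18 ablated cells. Suprabasal-like cells at 1 week held 1.53 and 31.1, in the different clusters named for Igfbp3, and there the log2 ratio of 4.34 became -0.15 with a lowest count of 500 UMIs. Pooled keratinocyte Igfbp7 stood at 20.6 and 15.8 at 1 day and at 39.2 and 48.4 at 1 week, and summed over the shared clusters both signs turned, to log2 ratios of 0.25 and -0.25 (0.12 and -0.063 with these counted equally).

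Counted by the rule of at least 2-fold with at least 20 UMIs, 1 of 8 genes was higher (Igfbp5) and 2 were lower (Igfbp2 and Igfbp3) in ablated keratinocytes at 1 day. Among all 14680 genes with 20 UMIs, 6.02% were higher and 3.27% lower. At 1 week 2 of 8 were higher (Igfbp2 and Igfbp6) and 1 lower (Igfbp3), against 10.3% and 5.39% of 14192 genes. Igfbp6 stayed past 2-fold in 7 of 14 alternatives at 1 week, Igfbp2 in 10 and Igfbp3 in all 14. The median log2 ratio of the 8 genes was -0.29 at 1 day, against -0.00015 over all genes, and 0.65 against 0.08 at 1 week. In bulge-like cells 1 of 7 was higher (Igfbp5, against 3.07%) and 0 lower (against 1.00%) at 1 day. At 1 week 0 were higher (against 3.98%) and 1 lower (Igfbp3, against 4.63%). These shares are descriptions, since the list was made with such values known.

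Of 59 other genes of the pathway, 50 had at least 20 keratinocyte UMIs at 1 day, with 4 higher, 4 lower and a median log2 ratio of 0.0057, beside the 6.02% higher and 3.27% lower over all genes. Foxo3, a transcription factor restrained by AKT, stood at 14.8 (control) and 43.4 (ablated). The others that were higher, Pappa2, Igf2bp1 and Dlk1, had at most 44 UMIs in a library. Htra1, a protease that cleaves binding proteins, stood at 54.6 and 25.0 and Phlda3, an AKT inhibitor, at 102 and 46.2. Grb10, an adaptor that dampens IGF signalling, and Lrp1, a receptor that also binds IGFBP3, were the other genes lower by 2-fold, Lrp1 at 18.5 and 9.24.

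At 1 week 48 of the 59 had enough UMIs, with 7 higher, 2 lower and a median of 0.030, beside 10.3% higher and 5.39% lower over all genes. Ctsd and Ctsl, lysosomal proteases, stood at 140 and 580 and at 144 and 535. Stc2, an inhibitor of PAPP-A, stood at 0.326 and 4.06, and Eif4ebp1, a translation repressor controlled by mTOR, at 37.8 and 84.8. H19 and Dlk1, both imprinted, were higher from few UMIs, 5 and 62 for H19 and 17 and 32 for Dlk1. Igf2bp1, which encodes an RNA-binding protein, had 0 UMIs in the control (up to 0.0652 CPM) and stood at 1.85 in the ablated library. Igfals was lower (58 and 12 UMIs), and Lrp1 was lower again, at 35.8 and 16.4.

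The docking proteins and the insulin receptor differed less. Insr stood at 12.6 and 12.4 at 1 day and at 19.7 in each library at 1 week, and Irs1 at 2.19 and 2.31 and at 5.26 and 5.37. Irs2 was lower in the ablated library at both times, at 83.4 and 50.9 and at 66.7 and 39.5 (log2 ratios -0.71 and -0.75). Pappa stood at 2.66 and 4.40 at 1 day and at 3.39 and 4.51 at 1 week.

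Over the control classes with at least 50 cells (8 at 1 day and 11 at 1 week), the genes whose levels followed each member best were found among 13106 genes by the mean Pearson correlation of the 2 times. Classes within a library share its depth and free RNA, so these values are descriptions. Igfbp3 was followed by Adgrg2 (0.927) and Ptges (0.917), Igfbp2 by Lrmda (0.957) and Pla2g2e (0.954), and Igfbp4 by Steap4 (0.925) and Iah1 (0.924). Igfbp5 was followed by Serpina3n (0.973), Igfbp6 by Kirrel (0.980), Igfbp7 by Cuedc1 (0.946) and Igf1r by Plscr4 (0.948). The gene nearest to Igf2r was its antisense neighbour Airn (0.95). Igf1 had too few UMIs for this measure.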

How the data were processed

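The authors deposited raw UMI counts for each gene in each barcode, made with Cell Ranger 5.0.1 per the file headers, and Seurat and mm10 are named per the submitters' processing notes. The 9 genes, the pathway list and the markers were chosen with earlier results of these data known. Barcodes were kept from 1500 UMIs and 300 genes upward if mitochondrial UMIs were 15% or less. The highest Scrublet scores (scanpy 1.11.5) were removed as doublets, at a rate that grows with the number of barcodes. The rate came to 14.7% to 26.8% of the scored barcodes, those with at least 500 UMIs, 300 genes and at most 15% mitochondrial UMIs. Control and ablated cells of each time were clustered jointly on 2000 variable genes, leaving out the IGF genes (30 components, 15 neighbours, Leiden resolution 1, leidenalg 0.10.2) and named from fixed markers. The limits for naming were chosen after seeing the data. Clusters close to free RNA were set aside, and at 1 week only also those with a median under 3000 UMIs, unless named as another cell type. UMIs were summed per class and library. With 1 library per group no test was run. A gene counted as higher or lower at 2-fold or more with at least 20 UMIs over both libraries. All 9 genes are named, and pathway genes were named by the same limits, plus Igf2, Insr, Irs1, Irs2 and Pappa. CPM were computed from these sums. The alternatives changed scaling, filters, doublets, resolution and thinning. Calculations were tested on simulated counts. Gene positions are from GRCm38 and promoters from RefSeq GRCm38.p6, where all 9 genes matched. Igfbp2 has 2 listed starts, of which the first was used.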

Additional observations from a re-analysis of the deposited data

Results flagged for a closer look

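In these comparisons the sign of the difference was opposite at the 2 time points, which also differ in kit, and the difference between the times was not tested. In keratinocytes the log2 ratio of Igfbp2 was -1.37 at 1 day and 1.60 at 1 week, that of Igfbp4 was -0.61 and 0.34, and that of Igfbp7 was -0.38 and 0.31, where the signs of Igfbp4 and Igfbp7 each turned at both times when summed over the shared clusters, though Igfbp4 at 1 day was -0.45 with these counted equally. The 1-week ratio of Igfbp2 was 0.72 summed over these clusters and -0.049 with these counted equally. In bulge-like cells the ratio of Igfbp6 was -0.27 at 1 day and 0.30 at 1 week, and that of Igfbp7 was 0.24 and -0.21, where the 1-week Igfbp7 ratio was 0.98 with doublets kept. In basal interfollicular-like cells the ratio of Igfbp7 was -2.28 at 1 day and 1.86 at 1 week, from 12 and 26 ablated UMIs, and in keratinocytes without a class that of Igfbp4 was -1.43 and 0.16. At 1 day 2605 of the 6102 ablated cells without a class lay in a cluster with 2 control cells. The 1-day Igfbp4 ratio there was -0.61 with at most 10% mitochondrial UMIs. In Langerhans cell-like cells the ratio of Igfbp4 was -2.10 and 3.79, from 19 control and 5 ablated UMIs at the earlier time and 2 and 28 at the later one, where 1 cell held 20. In fibroblast-like cells the ratio of Igfbp4 was -1.21 at 1 day and 1.499 at 1 week, that of Igfbp5 was 1.69 and -0.55, and that of Igfbp7 was -1.22 and 0.64. The fibroblast-like clusters of the 2 times were led by different genes, and the 1-day one shared leading genes with the 1-week dermal papilla-like cluster. At 1 day the fibroblast markers there summed to 5116 and 2542 and the keratinocyte markers to 15730 and 32670, and 98.1% of the ablated Igfbp5 UMIs lay in 10 cells.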

How the results depend on the processing

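Within a time point no paired fit exists, with 1 library per group. A fit over all 4 libraries with time as a term was not run. Of 1191 values recomputed for 117 ratios, 1103 kept their direction, and of 47 ratios past 2-fold 22 stayed past it and 40 kept their direction under every alternative. The count of genes past 2-fold in keratinocytes stayed between 2 and 4 at 1 day (3 as reported). At 1 week it was 3 as reported, 5 with a lowest count of 3000 UMIs and 5 with at most 10% mitochondrial UMIs. It was 1 over clusters shared by both libraries and 1 with these counted equally, both alternatives chosen after seeing the data. At 1 week Igfbp6 in keratinocytes was -0.65 over all cells, and Igfbp2 was -0.049 with shared clusters counted equally. Igfbp5 in keratinocytes, below 2-fold, turned from 0.95 to -0.92 over all cells. Among 1-week ratios of other classes past 2-fold, the sign turned for Igfbp7 in basal interfollicular-like cells (-0.15, thinned), in suprabasal-like cells (-0.15, lowest count 500 UMIs) and in keratinocytes without a class (-0.0046, resolution 2). It also turned for Igfbp4 in suprabasal-like cells (-0.089 with a lowest count of 3000 UMIs and -0.018 with doublets kept) and for Igfbp6 in keratinocytes without a class (-0.32, thinned). Of 70 ratios below 2-fold 33 kept their direction under every alternative, and 3 turned to past 2-fold the other way, all at 1 week: Igfbp4 in keratinocytes without a class (-1.54, lowest count 500), Igfbp7 in cycling keratinocytes (-1.07, lowest count 3000) and Igf2r in fibroblast-like cells (-1.0, without the 10 highest cells). The last of these left out 10 of 158 control and 10 of 64 ablated cells, a larger part of the ablated class. The cause of these turns was not tested. Doublets kept left no fibroblast-like class at 1 day, so that alternative has no value. Median ratio scaling moved the median of all genes by -0.11 in 1-day fibroblast-like cells, -0.11 in 1-week suprabasal-like cells, 0.12 in 1-week sebaceous-like cells and -0.10 in 1-day keratinocytes without a class. At this depth keratinocytes of every library held 11 Igf1 UMIs or fewer, too few for a ratio.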
